A study of Arabidopsis thaliana with 12 samples.

Results

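The *hub1-2* mutant and its wild type were compared in whole siliques, the seed pods with their maturing seeds, harvested 18 to 19 days after pollination. All 6 arrays that carry the genotype *rdo4*, the older name of *hub1-2*, or wild type were used, out of 12 arrays in the series. They hold 3 samples of each genotype in the Landsberg *erecta* (L*er*) background, each from an independent biological replicate of plants grown on soil in long days without any further treatment. The other 6 arrays hold 3 samples each of *rdo2-1* and *rdo3*, other reduced dormancy mutants whose siliques were collected at the same stage. They serve here mainly where *hub1-2* levels are set beside other mutants, and those of *rdo2-1* also in choosing the probe sets tested. Every group is 1 mutant allele, and no second *hub1* allele and no complemented line was measured, so an effect of *HUB1* and of other differences between the *hub1-2* line and L*er* cannot be told apart.

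*HUB1* encodes a RING E3 ligase that, with its partner HUB2, attaches a single ubiquitin to histone H2B, a mark found over transcribed genes and linked to transcription elongation. Plants without the mark are viable, with seeds of low dormancy, early flowering and changes in the cell cycle and the clock. At the stage sampled, the embryo has stored its reserves and is drying, the seed coat is dying and tanned by flavonoids, and the silique wall is losing its chlorophyll before the pod opens. A whole silique mixes these tissues, and fewer cells of a type and less RNA per cell cannot be told apart in it.

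The values are GC-RMA intensities, in arbitrary units, from ATH1 arrays. They were compared on the log2 scale with limma over the 6 arrays, and calls were made at a false discovery rate (Benjamini-Hochberg adjusted p) below 0.01. The median intensity of an array was at most 12.0. Levels below it are called near background here, and a fold change from or to such a level has an uncertain size. The seed storage albumin gene *SESA1* had a mean of 30935 in L*er* and 26983 in *hub1-2*, so seeds contributed RNA. *RCA*, encoding Rubisco activase of green tissue, had a mean of 5476 and 3276. Which green parts of the silique its RNA came from was not tested. *HUB1* itself had intensities of 86.8, 80.9 and 67.8 in the 3 L*er* arrays and of 160.4, 169.0 and 212.1 in the 3 *hub1-2* arrays, without overlap. Its transcript was upregulated 2.29-fold (log2 fold change 1.2, standard error 0.17, adjusted p = 0.0019, or 0.012 without *hub1-2* replicate 3), so its level does not check the genotype label.

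Limma called 1385 probe sets in *hub1-2* against L*er*, which is 9.45% of those tested, with 810 higher (5.53%) and 575 lower (3.92%). Among the 8079 that the array annotation ties to 1 gene the share was 9.13%. A listed gene counts as measured below only where a tested probe set bears its name. Of those tested 5467 have no single name, so listed genes not counted may lie among them. In every one of the 1385 the 3 *hub1-2* arrays lay on one side of the 3 L*er* arrays, as they did for 43% of all probe sets tested. The falls were the larger changes. Among them 64 were over 4-fold and 19 over 8-fold, against 41 and 2 of the rises. The median L*er* intensity was 202.8 for those called lower, 102.3 for those called higher and 53.6 for all tested. Part of this contrast is built in, since a level near background can rise but hardly fall. The L*er* mean also enters the difference by which the genes were sorted. Both group means lay above the array median for 692 of the rises and 457 of the falls. CyberT, the study's own test, called 1422 higher (9.7%) and 1071 lower (7.31%), and limma counted 5491 probe sets at an unadjusted p under 0.05. The counts depend on the arrays. Dropping the first or the third L*er* array left 458 higher and 342 lower or 484 higher and 385 lower. Dropping a *hub1-2* array left 299 and 251 (the first), 327 and 246 (the second) or 216 and 182 (the third). With each array centred on its median the numbers of rises and falls came close to each other, at 679 and 683.

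**Figure D1:**
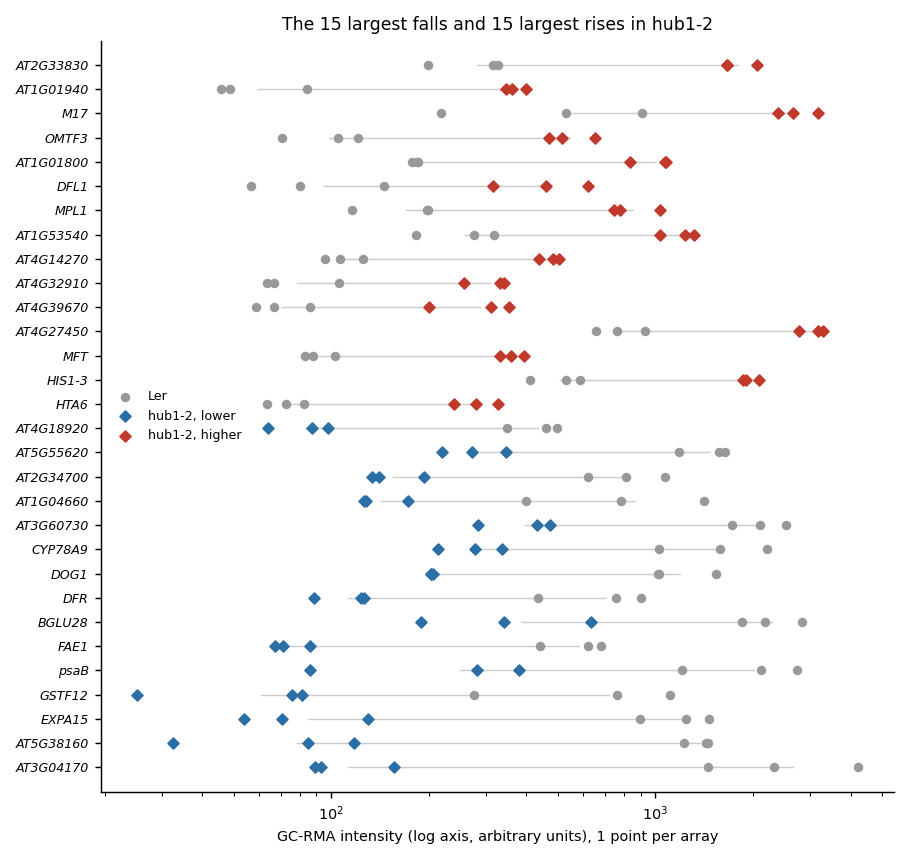
Intensities of the 15 largest falls and 15 largest rises among probe sets with 1 gene name and both group means above the median of the tested probe sets, on a log axis, with L*er* in grey circles, *hub1-2* in diamonds and a line between the group means. In each row the 3 *hub1-2* arrays lie apart from the 3 L*er* arrays, and the falls at the bottom span more of the axis than the rises at the top.

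The most regular pattern among the rises was one of position. At the start of chromosome 1, nearly every measured gene between *AT1G01640* and *AT1G02410* was upregulated in *hub1-2*. Of 28 probe sets that the array annotation gives a gene in this segment, 27 (96.4%) were called higher and none lower, against 4.99% called higher and 3.84% called lower, 8.83% in all, among the annotated probe sets elsewhere. The segment was found by this pattern, in a search of 7821 windows of 20 consecutive annotated loci over the 5 nuclear chromosomes, so its counts are a description and carry no test. Windows inside it held up to 20 of 20 loci called higher, whereas no window outside it held more than 5, and no window anywhere held more than 5 called lower. In the RefSeq table (TAIR10.1) the segment spans 83 protein-coding loci, after the first 66 of the 7156 on the chromosome. *HUB1* itself lies on chromosome 2.

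The rises in the segment ranged widely in size. The median log2 fold change of the 28 probe sets was 1.53, or 2.89-fold, and for the 23 whose L*er* mean lay above the array median all were called higher, by 1.79- to 6.42-fold with quartiles at 2.24- and 3.40-fold. Relative to the L*er* mean, the median of the 28 lay at 1.55, 1.5 and 1.48 log2 units in the 3 *hub1-2* arrays. In *rdo2-1* it lay at -0.04, 0.01 and -0.13, and in *rdo3* at 0.04, 0.11 and 0.03, so both of these mutants stayed at the level of L*er* where *hub1-2* did not. Set against *rdo2-1* and *rdo3* together, 26 of the 28 were called higher in *hub1-2*, with a median difference of 1.35 log2 units, against 11.3% of all annotated probe sets called higher in that comparison. No probe set of the 28 was called in *rdo2-1* or in *rdo3* against L*er*, where 0.149% and 0.0124% of all annotated probe sets were, so that these counts of 0 say little by themselves. Leaving out single arrays left 21 to 26 of the 28 called in *hub1-2* against L*er*.

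The segment holds genes of unrelated function at very different levels. *AT1G01940*, encoding a cyclophilin-type peptidyl-prolyl isomerase, had intensities of 45.7, 84.0 and 48.8 in L*er* and of 345.3, 397.6 and 362.1 in *hub1-2* (log2 fold change 2.68, standard error 0.23, adjusted p = 2.1e-04). *AT1G01800*, encoding a short-chain dehydrogenase, went from 184.2, 177.3 and 185.3 to 836.3, 1076 and 1069.7 (2.44, standard error 0.13, adjusted p = 6.3e-05). Neither gene showed any overlap between the groups. *AT1G02110*, encoding a proline-rich protein, rose by 2.77 log2 units from a mean of 11.6 near background. At high levels, the cathepsin B-like protease gene *AT1G02305* rose by 0.84 from a mean of 3340, and its neighbour *AT1G02300*, with a related product, by 1.78 from 215.2. *AT1G02080* (1.75), *AT1G01730* (1.80), *PLIM2b*, encoding an actin-binding LIM protein (1.76), and the pentatricopeptide repeat genes *AT1G01970* (1.32) and *AT1G02150* (1.53) lay between, and *AT1G02370*, of the same family, lay higher, at 2.36. The probe set not called, *AT1G02320*, had means of 6.51 and 7.21, both under the array median.

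A further 16 probe sets of the segment are named only through the study's own list of changed genes, which was drawn up from these arrays, so their direction is not independent evidence. Of these, 15 were called higher with a median log2 fold change of 1.53. They include *MAGO*, an exon junction complex subunit (1.03), *FUS5*, a subunit of the COP9 signalosome (1.68), *HFR1*, a bHLH factor of light signalling (1.73), *TOC33*, a receptor for protein import into chloroplasts (1.43), *MC1*, a metacaspase (1.22), *PEX11C*, of peroxisomes (1.94), the gibberellin 2-oxidase gene *GA2OX6* (2.03, from an L*er* mean of 8.67 near background) and *GPAT2* (1.25). The NAC factor gene *ATAF1* lay at 0.55 (adjusted p = 0.014). Among the 20 annotated loci before the segment none was called higher and 1 lower, with a median of -0.08 log2 units, and among the 20 after it 1 was called higher and 1 lower, with a median of 0.10. At the borders, *AT1G01630* lay at 0.31 just before (not called) and *AT1G02420* at 0.89 (adjusted p = 0.03) just after. A little further on, *CLPP5* (0.75, adjusted p = 9e-04) and *BXL2* (2.19, adjusted p = 1.3e-04), named through the study's list, were called higher among loci that were not, so the end of the segment is not sharply set. The cause was not tested, and copy number was not measured.

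**Figure D2:**
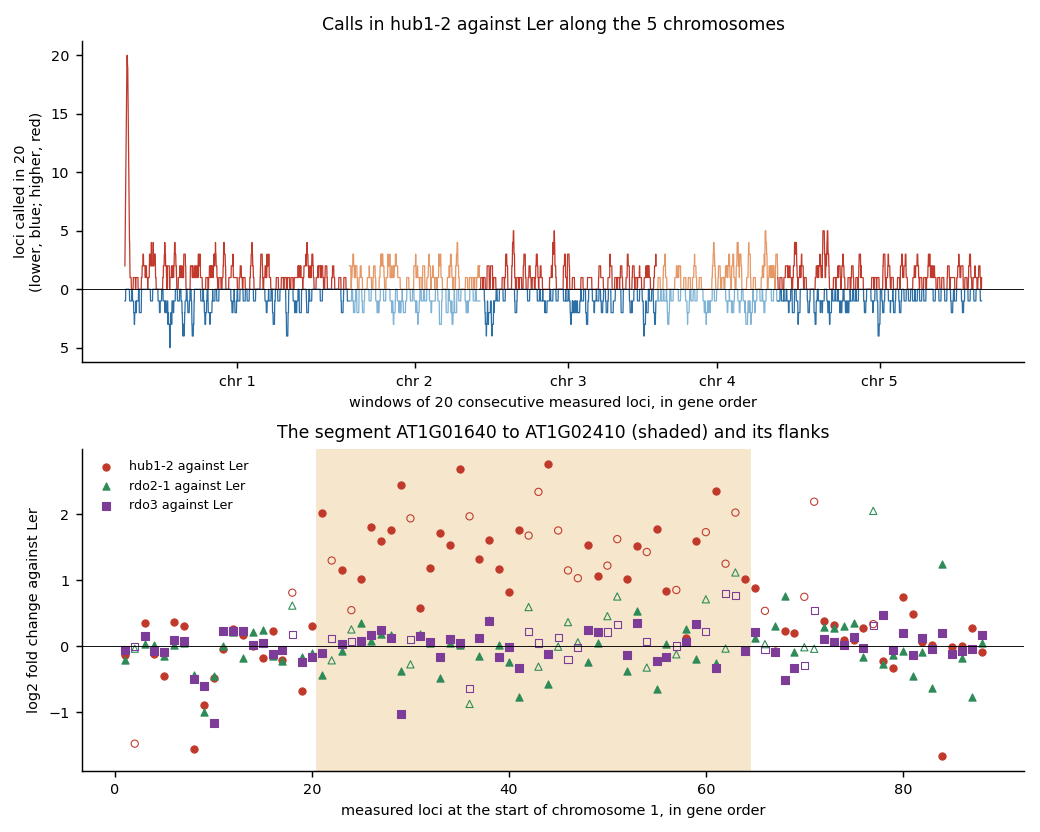
Top, number of loci called higher (red, up) or lower (blue, down) in each window of 20 consecutive annotated loci along the 5 chromosomes: the count reaches 20 at the start of chromosome 1 and stays at or under 5 elsewhere. Bottom, log2 fold change against L*er* of each measured locus in gene order at the start of chromosome 1 for *hub1-2*, *rdo2-1* and *rdo3* (open symbols, named only through the study's list), with the segment shaded: there the *hub1-2* points lie above 0 and mostly over 1, while those of the other mutants scatter around 0.

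Outside the segment no chromosome stood out. Between 4.35% (chromosome 3) and 5.39% (chromosome 5) of annotated probe sets were called higher on chromosomes 2 to 5, and 5.26% on chromosome 1 without the segment, and 3.54% to 4.15% were called lower on the 5 chromosomes. Of 2459 pairs of next-door loci tested outside it, 9 were called higher together, 6 lower together and 7 in opposite directions. In 268 pairs 1 or both loci were called higher, and in 179 pairs 1 or both were called lower. Whether neighbours were called together more often than the shares over all loci would give was not tested. Pairs that fell together include the lipid transfer genes *AT5G38160* and *AT5G38170* and the acyl carrier protein desaturase genes *AT5G16230* and *AT5G16240*, whose sequences may be alike enough to share probe signal. Without the segment, 768 probe sets remained called higher.

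Genes of the cell wall and the plant surface stood among the largest falls. The germin-like genes encode proteins of the wall, lipid transfer proteins carry lipids to the cuticle and the wall, and expansins and pectin methylesterases loosen or remodel the wall. *AT3G04170*, germin-like, had intensities of 1456, 2313 and 4225 in L*er* and of 89.1, 156.0 and 93.1 in *hub1-2* (log2 fold change -4.47, standard error 0.36, adjusted p = 1.6e-04). *AT5G38160*, of the lipid transfer family, went from 1435, 1448 and 1225 to 85.1, 32.6 and 117.2 (-4.31, standard error 0.39, adjusted p = 2.7e-04). *EXPA15*, an expansin gene, went from 899.3, 1458 and 1239 to 130.3, 53.7 and 70.6 (-3.89, standard error 0.31, adjusted p = 1.5e-04). In all of these the highest *hub1-2* array lay far below the lowest L*er* array. Others were the pectin methylesterase genes *AT3G60730* (-2.43) and *AT1G23200* (-2.15), the glycine-rich and extensin family genes *AT1G04660* (-2.43) and *AT2G34700* (-2.41), and the fasciclin-like arabinogalactan gene *FLA16* (-2.64). The fall of *AT1G04660* lost its call without L*er* replicate 1 and without *hub1-2* replicate 1, 2 or 3 (adjusted p of 0.011 to 0.02).

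Counted by the words of their descriptions, which the study's list gives for 1233 of the called probe sets, most of these families leaned to one side. Of the 1233, 719 (58.3%) were higher in *hub1-2*, which is the share to set beside each family. All 7 called lipid transfer genes fell, among them *LTPG1* (-1.37) and *LTPG2* (-1.20), which export lipids at the epidermis, as did all 3 called germin-like genes. Of the called pectin methylesterase genes 4 fell and 1, *AT2G47550*, rose (1.89), and of the arabinogalactan and fasciclin genes 5 fell and *AGP2* rose (1.54). Of the called expansin genes 1 fell and 1 rose, and of the glycine-rich, proline-rich and extensin-like genes 9 fell and 5 rose. The 3 called genes of pectin breakdown, *QRT2* (1.5), *AT2G43870* (1.41) and *AT1G23460* (1.85), all rose. The call of *QRT2* was lost without any 1 of the 6 arrays (adjusted p up to 0.025), that of *AT2G47550* without the first L*er* or the first or the third *hub1-2* array (up to 0.025) and that of *AGP2* without the first L*er* array (0.012). Because the list was drawn up from these arrays, these counts describe the calls and are not independent evidence.

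Some of the largest falls were also seen beside the other mutants. In the comparison of *hub1-2* with the mean of *rdo2-1* and *rdo3*, which shares the *hub1-2* arrays with the one above, limma called 1783 probe sets higher (12.2%) and 1131 lower (7.72%, or 7.18% of the annotated ones). Dropping a *hub1-2* array left 986 and 611 (the first), 830 and 541 (the second) or 807 and 534 (the third). The log2 difference for the 4 genes looked at, all chosen for their fall against L*er*, was -4.65 for *AT3G04170* (adjusted p = 1e-06), -3.97 for *AT5G38160* (adjusted p = 8.6e-04), -3.08 for *EXPA15* (adjusted p = 6.3e-04) and -1.73 for *AT3G60730* (adjusted p = 5.1e-05). In *rdo2-1* replicate 2, *EXPA15* had an intensity of 177.9, against 621.4 and 1070 in the other *rdo2-1* arrays, so this array lay nearest to the *hub1-2* arrays.

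Genes at several steps of fatty acid synthesis were downregulated. The plastid makes acyl chains on acyl carrier protein from malonyl-CoA, desaturases add double bonds, and elongases extend the chains for seed oil or for waxes. *FAE1* (listed as *KCS18*), the elongase of seed oil, had intensities of 441.4, 681.7 and 620.9 in L*er* and of 86.2, 71.2 and 67.0 in *hub1-2* (log2 fold change -2.94, standard error 0.19, adjusted p = 9.9e-05). *AT5G16240*, a stearoyl acyl carrier protein desaturase gene, went from 175.7, 208.7 and 234.1 to 29.7, 21.6 and 28.0 (-2.97, standard error 0.18, adjusted p = 9.9e-05), and the array groups of both genes lay far apart. Of the 17 genes listed for fatty acid and oil synthesis 10 were measured, all through the study's list, and 7 were called lower and none higher, with a median of -1.03 log2 units. Over all probe sets 3.92% were called lower and the median was 0.02, but genes named through a list of changed genes had to differ more often, so nothing is read from this contrast. The 7 run from *CAC2*, a subunit of the acetyl-CoA carboxylase that makes malonyl-CoA (-1.80), through *ACP1*, an acyl carrier protein (-1.91), and the condensing enzymes *KASI* (-0.99) and *FAB1* (-1.27) to the desaturases *SSI2* (-0.98) and *FAD2* (-0.84) and to *FAE1*. Dropping single arrays cost the calls of *FAB1* (3 arrays, adjusted p up to 0.016), *KASI* (the *hub1-2* arrays, up to 0.015) and *FAD2* (any array, up to 0.037). The other 3, *CAC3* (-1.07), *MOD1* (-0.91) and the pyruvate kinase gene *PKP-BETA1* (-0.20), did not pass the test.

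Of the same pathway and named by the array annotation, the desaturase genes *AT5G16230* (-2.58, adjusted p = 6.1e-04) and *AT3G02630* (-1.39), the 3-oxoacyl reductase gene *AT1G24360* (-0.89) and the hydroxyacyl dehydratase gene *AT5G10160* (-0.65) were also called lower, and were picked with their values known. *AT5G10160* had a mean of only 8.45 in *hub1-2*, near background. By description words, 17 of the 21 called acyl lipid and fatty acid genes were lower, which is a description of the calls only. Of the 4 that were higher, *AT1G01710* and *GPAT2* lie in the chromosome 1 segment. Against *rdo2-1* and *rdo3*, *FAE1* differed by -1.85 log2 units (adjusted p = 9.7e-04) and *AT5G16240* by -2.06 (adjusted p = 0.0017), with *rdo2-1* and *rdo3* between *hub1-2* and L*er*.

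In cutin, suberin and wax synthesis, 10 of 31 listed genes were measured, all through the study's list, and 4 were called lower and none higher, where the share called lower over all probe sets was 3.92% and the same reservation holds. *KCS6*, the elongase of cuticular wax, fell by 2.32 log2 units from a mean of 48.3 to one of 9.43, under the array median. *KCS10*, known as FIDDLEHEAD (-1.94), *KCS1* (-1.47) and the wax gene *CER3* (-1.09) were the others. That of *CER3* was lost without the first L*er* or any *hub1-2* array (adjusted p up to 0.028). The suberin acyltransferase gene *GPAT5* lay at 0.92 (adjusted p = 0.037).

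The flavonoid pathway, which gives the anthocyanins of green tissue and the tannins of the seed coat, had the lowest median among the lists of more than 5 genes. This rank depends on names from the study's list of changed genes, which gave 6 of its 9 members. The 3 named by the array annotation had a median of -0.98 log2 units. *TT4*, encoding chalcone synthase at its entry, had intensities of 375.0, 88.4 and 587.3 in L*er* and of 7.81, 15.3 and 9.68 in *hub1-2* (log2 fold change -4.68, standard error 0.61, adjusted p = 0.0014), under the array median except in 1 array. *DFR*, encoding dihydroflavonol reductase, went from 755.7, 433.9 and 905.7 to 88.3, 123.8 and 125.9 (-2.58, standard error 0.27, adjusted p = 5.1e-04). L*er* replicate 2 was the lowest L*er* array for both genes, and the groups did not overlap. With array annotation 2 of 3 flavonoid genes were called lower, *DFR* and *UGT78D2* (-0.98), where 3.82% of all annotated probe sets were. With the 6 named only through the study's list, all 9 lay lower and 6 were called, with a median of -1.55. The count of 6 became 2 or 3 when the first or the third L*er* array was dropped, and 2, 3 or 1 when the first, the second or the third *hub1-2* array was.

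These falls were partly shared by the other mutants. *TT4* lay at 11.2, 59.3 and 13.2 in *rdo2-1* and at 91.2, 14.3 and 59.9 in *rdo3*, all but the highest of these under every L*er* array. Of *TT4*, *DFR*, *GSTF12*, needed to move flavonoids into the vacuole (-3.52 against L*er*), and the glucosyltransferase gene *AT4G14090* (-3.71), none was called against *rdo2-1* and *rdo3*, with differences of -1.5 (adjusted p = 0.076), -1.0 (0.068), -1.54 (0.069) and -1.63 (0.037). Of the 9 flavonoid genes 1 was called lower in that comparison, and none higher. Against L*er*, the calls of *TT4* and *AT4G14090* needed the third *hub1-2* array (adjusted p = 0.011 for both without it), and that of *GSTF12* was lost without any 1 of 4 arrays, the first and the third of each genotype (adjusted p up to 0.016).

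Some rises had the same form. *M17*, a late embryogenesis abundant gene, had intensities of 531.7, 906.7 and 217.7 in L*er* and of 2656, 2385 and 3177 in *hub1-2* (log2 fold change 2.53, standard error 0.42, adjusted p = 0.0044), but differed from *rdo2-1* and *rdo3* by 0.5 (adjusted p = 0.074). *DFL1*, encoding an enzyme that conjugates auxin to amino acids, rose by 2.37 against L*er* and lay 0.48 above the other mutants (adjusted p = 0.16). The call of *M17* was lost without L*er* replicate 1 (adjusted p = 0.015) and without *hub1-2* replicate 1, 2 or 3 (0.017, 0.014 and 0.025), and that of *DFL1* without L*er* replicate 1 (0.012) and *hub1-2* replicate 1 or 3 (0.011 and 0.015). By contrast *AT2G33830*, described as dormancy and auxin associated, went from 327.4, 316.1 and 199.0 to 1664, 1667 and 2057 (2.70, standard error 0.19, adjusted p = 1.1e-04) and also differed from the other mutants by 3.08 (adjusted p = 5.1e-06). The methyltransferase gene *OMTF3* (2.48), the lipase gene *MPL1* (2.35) and the uncharacterized genes *AT4G14270* (2.13), *AT4G32910* (2.01), *AT4G39670* (2.01) and *AT4G27450* (1.99) were the other large rises from clear levels in L*er*.

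Called genes of chromatin, ribosome assembly and RNA handling were mostly rises. Among 45 histone genes, a list added after the values were seen, 14 were measured. With array annotation 4 of 12 were called higher and none lower, beside 5.31% called higher and 3.82% called lower among all annotated probe sets. *HIS1-3*, a drought-inducible linker histone, had intensities of 586.6, 530.4 and 411.0 in L*er* and of 1861, 1909 and 2085 in *hub1-2* (log2 fold change 1.95, standard error 0.14, adjusted p = 1.1e-04). The H2B genes *AT3G09480* (1.24), *HTB2* (1.02) and *AT2G28720* (0.44) were the others, and the H2A genes *HTA6* (1.95) and *HTA13* (1.32) rose among those named through the study's list. The abundant *HTB4* (0.22, adjusted p = 0.089) and *HTB11* (0.23, adjusted p = 0.17) were not called. Of the 14, 6 were called higher in all, 5 after centring or quantile normalization, 3 without the first L*er* or the second *hub1-2* array and 2 without the third *hub1-2* array. The calls of *AT2G28720* (adjusted p up to 0.04), *HTB2* (up to 0.03), *AT3G09480* (up to 0.023) and *HTA13* (up to 0.013) were among those lost. Without the third L*er* array 1 of the 14 was called lower.

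By description words, all 11 called probe sets for histones, all 8 for nucleosome assembly and bromodomain or similar proteins, all 12 for WD-40 repeat proteins, all 12 for helicases and all 9 for ribosome assembly were higher, where 58.3% of all called probe sets with a description were. Of the called RNA-binding proteins 20 of 21 were higher, of translation factors 11 of 12, of mitochondrial proteins 14 of 16, of ribosomal proteins 14 of 18 and of RING and U-box proteins 15 of 16. *EMB3108*, a DEAD-box helicase gene, rose by 2.46 log2 units, *AT1G51380*, of the eIF4A type, by 2.13, *PUM23*, a Pumilio protein gene, by 1.71, *AT1G52930*, a Brix domain gene of ribosome assembly, by 1.59 and *SVR1*, a pseudouridine synthase gene, by 1.60 and 1.29 in its 2 probe sets. Of the 12 pentatricopeptide repeat genes called higher, 8 lie outside the chromosome 1 segment. The families overlap in part, since some descriptions hold the words of more than one. Some of them were added after the data were seen, so their leaning to one side describes the calls and is not independent evidence.

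Chaperones followed the same direction. Of 27 called chaperone and heat shock probe sets 25 were higher, and in the heat shock list 7 of 9 with array annotation were called higher and none lower, beside 5.31% called higher among all annotated probe sets. The small heat shock protein gene *AT1G53540* went from 318.7, 276.6 and 182.0 in L*er* to 1033, 1319 and 1234.3 in *hub1-2* (2.24, standard error 0.20, adjusted p = 2.7e-04), and *AT1G52560* rose by 1.93. Over the list's 15 measured probe sets the summed intensity was 19264 to 26442 in L*er* and 35673 to 36623 in *hub1-2*, without overlap. The sums of the jasmonate list, in which no gene was called, did not overlap either (9154 to 13909 in L*er*, 7283 to 9074 in *hub1-2*). Such a separation therefore says little by itself. Of the 10 calls in the list 6, 5 or 3 were left when the first, the second or the third *hub1-2* array was dropped.

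**Figure D3:**
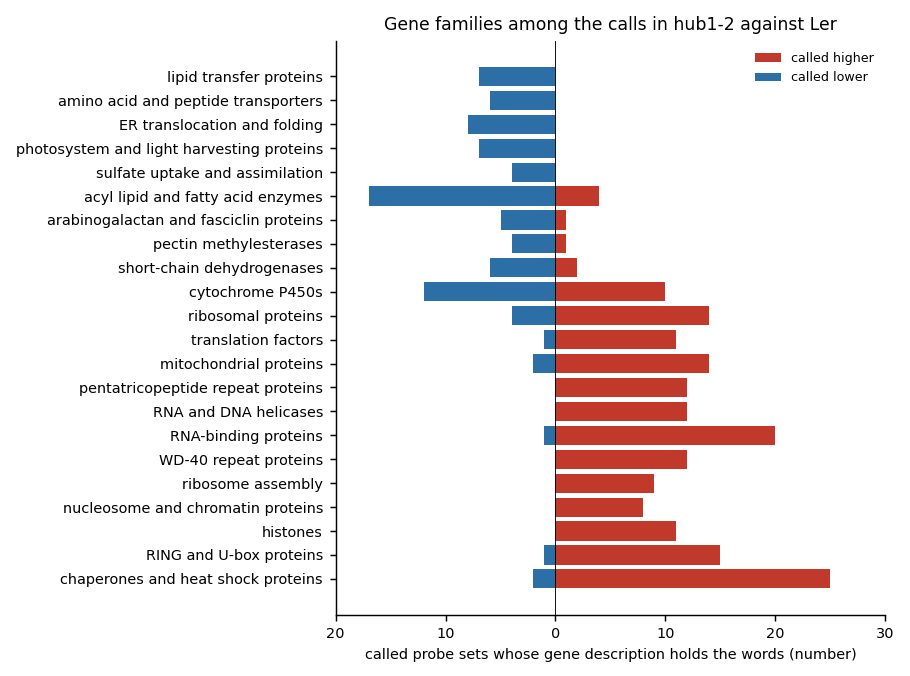
Number of called probe sets higher (red, right) and lower (blue, left) in *hub1-2* than in L*er* whose gene description holds the words of a family. The lower families of the plot, of chromatin, RNA and chaperones, lie almost wholly on the right, and those at the top, of lipid transfer, transport, secretion and photosynthesis, almost wholly on the left.

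Several families of transport and secretion went the other way. Some of these too were added after the data were seen, so their counts only describe the calls. All 6 called amino acid and peptide transporter genes were lower, with *AAP7* at -2.09, *AAP6* at -1.76, *OPT5* at -1.72 and *AAP2* at -1.61 log2 units. The call of *AAP6* was lost without the first L*er* or any *hub1-2* array (adjusted p up to 0.021). All 4 called genes of sulfate uptake and assimilation were lower, from the transporter *SULTR1;2* (-1.91) to *APS1* (-0.43), and all 8 of the endoplasmic reticulum machinery that takes in, folds or retains secreted proteins, among them *AT3G25160* (-2.24), *PDIL1-1* (-0.68) and the SEC61 subunit gene *AT2G34250* (-0.62). *OPT5* had intensities of 397.3, 368.9 and 398.8 in L*er* and of 112.1, 109.9 and 132.2 in *hub1-2* (standard error 0.13, adjusted p = 1.4e-04), with each group close together. Other transporters were mixed. Of the called MATE transporter genes 2 rose and 2 fell, of the ABC transporter genes 1 rose and 2 fell, and of the sugar transporter genes 3 rose and 5 fell, with *SWEET1* (2.44) and *SWEET6* (1.72) up and *SWEET11* (-0.54) and *SUC2* (-0.54) down.

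Photosynthesis genes had lower means in *hub1-2*, with wide spread among arrays. Of the nuclear genes listed, 18 probe sets were measured. With array annotation 2 of 5 were called lower, beside 3.82% of all annotated probe sets. With the 13 named only through the study's list, all 18 had lower means and 4 were called. These were *LHCB4.1* (-0.53, adjusted p = 0.0033) and *RCA* (-0.73, adjusted p = 0.0086), with *PSBO1* (-1.04) and *PETC* (-0.93) through the study's list. Their count was 7 after centring the arrays, 16 by CyberT, 1, 8 and 2 with the first, the second or the third L*er* array dropped and 1, 0 and 0 with the first, the second or the third *hub1-2* array dropped. The summed intensity was 23110, 19685 and 31030 in the L*er* arrays and 16389, 14292 and 12415 in the *hub1-2* arrays, which do not overlap. The sums of the jasmonate list, in which no gene was called, did not overlap either, so this separation says little by itself.

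The 62 measured probe sets of plastid-encoded genes had a median of -0.42 log2 units. Of these 6 were called lower and none higher, beside 3.82% called lower among all annotated probe sets, with *psaB* at -3.19, *psbC* at -2.95, *petA* at -2.01, *psbZ* at -1.97, *psbH* at -1.64 and *psbM* at -0.32 log2 units. *psaB*, a core protein of photosystem I, had intensities of 2727, 2112 and 1205 in L*er* and of 380.8, 281.7 and 86.0 in *hub1-2* (standard error 0.51, adjusted p = 0.0037, or 0.016 without L*er* replicate 1), so its groups lay apart while each spread more than 2-fold. Only 2 of the 62 were called with the first L*er* array dropped, 3 with the second or the third *hub1-2* array dropped and 10 with the third L*er* array dropped. CyberT called 13. Plastid transcripts mostly lack the tails by which such labelling usually primes, and their level on arrays need not follow that of nuclear transcripts. Of 12 mitochondrion-encoded probe sets 11 had a negative log2 fold change, with a median of -0.34 for the 12. Only *nad4*, near background in both groups, was called by limma (-0.85, adjusted p = 0.0025), beside 3.82% called lower among all annotated probe sets. CyberT called 4 of the 12 lower.

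Markers of the embryo reserves differed little. The summed intensity of their 9 probe sets was 154259 to 165405 in L*er* and 151611 to 164764 in *hub1-2*, ranges that overlap. Among them *SESA1* (-0.20, adjusted p = 0.0091) and *ATS1* (-0.25, adjusted p = 0.0085) were called, by small amounts. Both calls were lost with the arrays centred on their median and without any 1 array (adjusted p up to 0.049). Of 12 genes listed as seed coat markers only 2 had a named probe set among those tested, *GSTF12* and *ARA12*, not called (0.72, adjusted p = 0.026). The seed coat could therefore not be judged from its own markers. Of the valve margin and dehiscence list 4 genes were measured, and *ALC*, a bHLH factor of the opening zone, was called lower (-1.17, adjusted p = 0.0022, and up to 0.015 without 1 *hub1-2* array), while *SHP2* (-0.79, adjusted p = 0.012), *ADPG1* (-0.34, 0.019) and *PGAZAT* (0.32, 0.055) were not. Of 3 senescence markers the factor gene *NAP* was called lower (-1.65, adjusted p = 0.0075, with the call lost without any 1 of the arrays), and *SEN1* (0.69, adjusted p = 0.047) and *NAC6* (0.2, 0.23), both with higher means, were not called. The part of these tissue differences in the other results was not tested.

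**Figure D4:**
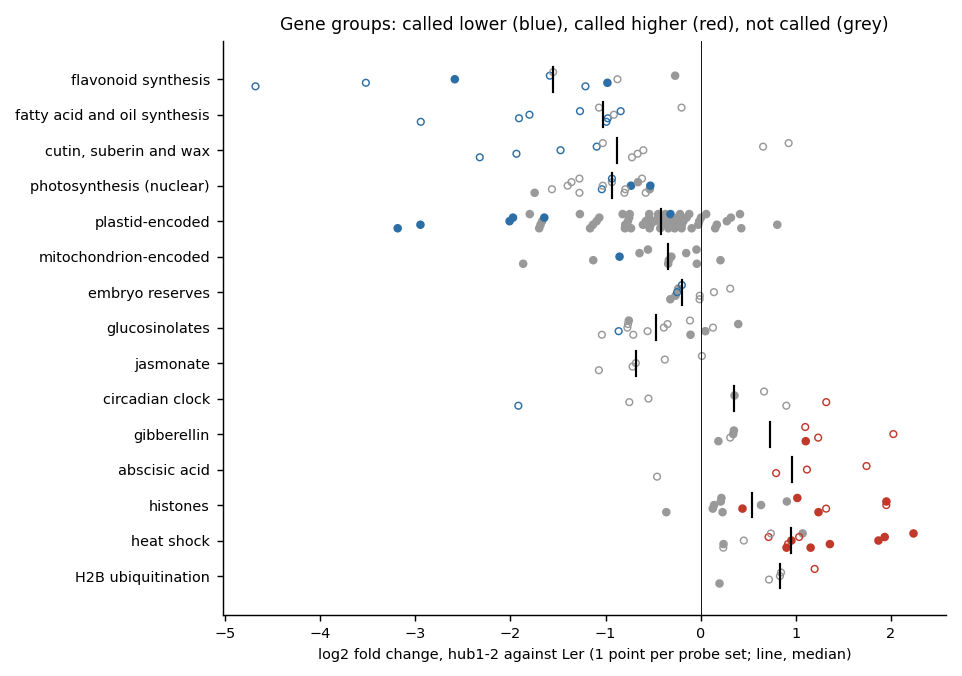
Log2 fold change of each measured probe set in 15 gene groups, *hub1-2* against L*er* (filled, named by the array annotation; open, named only through the study's list; blue, called lower; red, called higher; grey, not called; black line, median). Flavonoid and fatty acid genes lie left of 0, embryo reserve genes close to 0, and histone and heat shock genes mostly to the right.

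Single regulators of the clock and of seed maturation also changed. Among clock probe sets 6 of 7 were named only through the study's list, and 1 was called higher and 1 lower. Over all probe sets 5.53% and 3.92% were. CyberT called 3 higher and 3 lower, where it called 9.7% and 7.31% of all probe sets. Against *rdo2-1* and *rdo3*, limma called 4 higher and 3 lower, where 12.2% and 7.72% of all probe sets were. Because of the source of the names, nothing is read from these contrasts. Of the 7 measured clock probe sets, *LHY*, a morning MYB factor, went from 556.4, 415.7 and 611.7 in L*er* to 154.3, 157.6 and 108.2 in *hub1-2* (log2 fold change -1.92, standard error 0.20, adjusted p = 5.1e-04). *TOC1*, an evening component that represses it, rose by 1.32 (adjusted p = 0.0036), and lost its call without L*er* replicate 1 or 3 or *hub1-2* replicate 2 or 3 (adjusted p of 0.011 to 0.015). *CCA1* (-0.55, adjusted p = 0.047), *RVE1* (-0.75, 0.017), *ELF3* (0.90, 0.01), *PRR3* (0.67, 0.022) and *GI* (0.35, 0.21) were not called by limma against L*er*. The sources used here do not state the hour of harvest.

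Beside *HUB1*, the H2B ubiquitination and elongation genes measured were *HUB2* (0.83, adjusted p = 0.014), *ELF7*, of the PAF1 complex (0.84, 0.036), *SDG25*, a histone methyltransferase also known as ATXR7 (0.72, 0.016), and the H2B deubiquitinase gene *UBP26* (0.19, 0.56), none of them called by limma. CyberT called 4 of the 5 higher, *HUB1* counted in, where it called 9.7% of all probe sets higher. Of the 5, 4 were named only through the study's list. *DOG1*, the main gene of seed dormancy, had intensities of 1025, 1538 and 1016 in L*er* and of 202.9, 203.8 and 206.3 in *hub1-2* (log2 fold change -2.52, standard error 0.16, adjusted p = 9.9e-05). The flowering repressor gene *FLC* rose by 0.86 (adjusted p = 0.0026), and lost its call without L*er* replicate 1 or *hub1-2* replicate 1 or 2 (adjusted p of 0.011 to 0.017).

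The bZIP factors of maturation *DPBF2* (-2.17) and *EEL* (-1.0) fell while *MFT* (listed as *E12A11*), which acts in the germination response to abscisic acid, rose from 83.1, 103.1 and 88.0 to 392.5, 358.0 and 332.1 (1.98, standard error 0.14, adjusted p = 1.1e-04). Of 4 measured abscisic acid genes, *NCED3* and *ABA3* of its synthesis rose by 1.12 and 0.79 and *CYP707A2* of its breakdown by 1.74. All 4 were named only through the study's list of changed genes. Over all probe sets 5.53% were called higher, but nothing is read from this contrast. The synthesis gene *ABA1*, with the highest level of the 4, lay at -0.46 (adjusted p = 0.013), not called by limma but called lower by CyberT and with the arrays centred. The call of *NCED3* was lost without the first *hub1-2* array and that of *ABA3* without any *hub1-2* array (adjusted p up to 0.015). In the gibberellin list the receptor gene *GID1B* (1.1, from an L*er* mean of 11.3 near background), the synthesis gene *GA3* (1.1) and the repressor gene *GAI* (1.24) were called higher, and the fourth call, *GA2OX6*, lies in the chromosome 1 segment. Of the 8 measured gibberellin probe sets 4, with 3 of the 4 calls, were named only through the study's list, so the same reservation holds. The call of *GAI* was lost without any 1 array (adjusted p up to 0.021).

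Among transcription factors outside these lists, *AT1G72570*, of the AP2 type described as an ovule development protein, went from 324.6, 304.3 and 309.2 to 23.2, 21.6 and 8.86 (log2 fold change -4.25, standard error 0.33, adjusted p = 1.5e-04), with the groups far apart. *RAP2.6*, an AP2 domain factor of stress responses, went the other way, from 20.2, 34.4 and 20.6 to 189.6, 128.7 and 165.4 (2.71, adjusted p = 2.7e-04). Of the cytochrome P450 genes 12 were called lower and 10 higher, with *CYP78A9*, a gene of the family that promotes fruit and seed growth, at -2.49 and *CYP705A21* at 2.08. *BGLU28*, a beta-glucosidase gene linked to sulfur starvation, fell by 2.71 (adjusted p = 0.0018, or 0.012 without *hub1-2* replicate 3).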

How the data were processed

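RNA from 3 samples each of L*er* and *hub1-2* siliques, and of *rdo2-1* and *rdo3*, was hybridized to ATH1 arrays, 1 sample per array. GC-RMA was run by the authors, and the deposited values are linear intensities in arbitrary units for 22810 probe sets. The sources used here do not say which arrays GC-RMA took together, and it can shrink values near background towards a common floor.

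Samples were grouped by their labelled genotype. Intensities were turned into log2 values, the 64 control probe sets were dropped, and probe sets were ranked by their second-highest value over 9 arrays (L*er*, *rdo2-1* and *hub1-2*) to test as many, 14655, as the study's detection filter kept. limma 3.58.1 in R 4.3.3 was fitted over the 6 L*er* and *hub1-2* arrays with a prior spread that follows intensity, and over 9 arrays for *hub1-2* against the mean of *rdo2-1* and *rdo3*. The limma fit over 6 arrays and CyberT were tested on simulated data, and the fit over 9 arrays was not. The Benjamini-Hochberg adjustment ran over every probe set tested. The CyberT settings were a window size of 101 with a weight of 10 for the prior.

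The array annotation gives 1 gene for 8079 of the tested probe sets, and the study's list of changed genes names 1109 more and gives descriptions. The other 5467 have no single name here, and listed genes that were not found may lie among them. The segment on chromosome 1 is the union of windows of 20 annotated loci with at least 15 called higher, trimmed to the first and last call. Gene groups were 18 lists by locus and families by description words, of which 6 patterns were narrowed and further ones added after the data were seen. Genes are named if they are among the 15 largest called rises or falls with separate arrays and both means above the median, among the 10 largest regardless of the lower mean, among the 3 largest rises or falls of a group, named by the paper, or in the lists of H2B ubiquitination and the clock. Genes of the segment and other members of the groups were named after their values were seen. Members and lists were chosen with earlier results of these data known. Gene length and promoter motifs were not analysed here. Counts and plots were made in Python 3.11.15 (pandas 2.3.3, NumPy 2.4.6, matplotlib 3.10.9). Having only 3 arrays of each genotype limits the precision. The limma p-values set each mean difference against the spread between these samples, moderated by that of the other probe sets.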

Additional observations from a re-analysis of the deposited data

How the results depend on the processing

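The overall counts in *hub1-2* against L*er* were also computed by CyberT, with a prior spread that does not follow intensity, with no filter and a stricter filter, with the arrays centred on their median or quantile normalized, with all 12 arrays in the fit, without probe sets that match several genes, at an adjusted p under 0.05, with the replicate number as a block and without each array in turn. The numbers of calls, 810 higher and 575 lower, became 1422 and 1071 by CyberT and 2069 and 1457 at an adjusted p under 0.05, and stayed within 1.5 times under the other settings apart from the block and the arrays left out. Without 1 array they ranged from 216 to 760 higher and from 182 to 635 lower. Same-numbered arrays of L*er* and *hub1-2* did not deviate together (correlations of -0.09, -0.07 and 0.07). With so few arrays of each genotype, these correlations cannot decide whether same-numbered samples were grown or handled together. With the replicate number as a block 479 were called higher, and 25 of the 28 annotated probe sets of the chromosome 1 segment.

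In the comparison with *rdo2-1* and *rdo3*, 1783 higher and 1131 lower, the numbers ranged from 807 to 1955 and from 534 to 1310 without 1 array, and were 1903 and 1216 with the block. In the segment 21 to 27 of the 28 were called under every setting run. The 43 largest rises and falls kept their direction under every setting run, and all were called under each except where an array was left out, when 35 to 43 were. The counts by gene group were computed by CyberT, with the arrays centred or quantile normalized, with the block and without each array. For the 21 counts above 0, 128 of these 210 values stayed within 1.5 times of the reported count and 82 did not. Checks of gene length and promoter sequence were not run. The number of arrays and, for genes near background, the intensity over background limit what could be called.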
